A study of Homo sapiens with 6 samples.

Results

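The SLAM gene cluster of human chromosome 1 holds CD48, CD244, SLAMF1, SLAMF6, SLAMF7, LY9 and CD84 side by side. Its accessible regions were followed in peak lists of ATAC-seq libraries, an assay that marks open DNA with a transposase, from ARP1, a human line of multiple myeloma, the cancer of plasma cells. Regions were chosen from the peak calls themselves: overlapping peaks of the 6 lists (by 1 bp or more) were joined, every merged region in a stretch of 550 kb around CD48 (GRCh38) was taken, and each was given to the protein-coding gene whose body it overlapped most, or else to the gene with the nearest end. This gave 19 SLAM regions among 75701 merged regions of the genome, and 2 further regions of the stretch fell to VANGL2. CD48 received 7 regions, SLAMF7 5, LY9 4, and SLAMF1, CD84 and CD244 1 each. SLAMF6 received none. The libraries are 3 of ARP1 cells carrying a KDM6A knockout (KO) and 3 of ARP1 cells wild type for KDM6A (WT). The labels state no treatment, no time and no knockout method, and do not say whether each genotype is a single clone. KDM6A is a demethylase that erases a repressive histone H3 mark, and the series asks how it shapes DNA accessibility. The sample titles number the replicates without naming the cultures they came from, so any spread given here is the spread between these 6 libraries.

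SLAM proteins are immunoglobulin-like receptors of blood cells. CD48 is a lipid-anchored surface protein on many blood cells and is the ligand of CD244 (2B4), a receptor of natural killer cells. SLAMF1, SLAMF6, SLAMF7, LY9 and CD84 bind a copy of themselves on the neighbouring cell. Most SLAM receptors signal through the small adaptors SAP (SH2D1A) and EAT-2 (SH2D1B). SLAMF7 is abundant on plasma cells and is the target of the myeloma antibody elotuzumab.

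The calling limits differed between genotypes and bear on every count. Background pileup, the number of overlapping tags the peak caller took as background, was 2.32, 2.05 and 2.56 in KO replicates 1 to 3 and 3.68, 3.11 and 3.77 in WT replicates 1 to 3. The KO lists held 33055 to 37314 peaks each and the WT lists 54443 to 56048. The lowest fold over background on a list was 3.09 to 3.31 in KO cells, equal to 9 or 10 tags at the summit, and 2.72 to 2.92 in WT cells, equal to 11 or 12 tags. Of 7 plasma cell genes, 6 had a peak within 1 kb of a gene end in all 6 lists (SDC1, TNFRSF17, IRF4, XBP1, POU2AF1 and CD38). PRDM1 had one in all 3 WT lists and in 1 KO list. Of 6 genes of other blood cells, CD3D, CD14, MPO and GZMB had none in any list. CD3E had one in all 6 lists at its upper-coordinate end only, and NCAM1 had one in all 6 at its lower-coordinate end only. Of all 20037 protein-coding genes, 54.6% had an end called in all 6 lists and 35.3% in none. These few genes do not identify the cells. The start of KDM6A was called in all 6 lists, which does not check the knockout.

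Promoters of 4 of the 7 genes are in the RefSeq table used (build GRCh38.p14), and their 250 bases upstream of the start are shown because they set the called promoter of CD48 beside promoters with no peak in any list. All 4 genes lie on the minus strand. The sequences run 5′ to 3′ and end 1 base before the start. Capitals in CD48 mark the stretch 85 to 79 bases upstream that holds the summit of 5 of the 6 lists. Capitals in CD244 and SLAMF6 mark motif matches described next, and SLAMF1 has no capitals.
CD48, chr1:160711823-160712072: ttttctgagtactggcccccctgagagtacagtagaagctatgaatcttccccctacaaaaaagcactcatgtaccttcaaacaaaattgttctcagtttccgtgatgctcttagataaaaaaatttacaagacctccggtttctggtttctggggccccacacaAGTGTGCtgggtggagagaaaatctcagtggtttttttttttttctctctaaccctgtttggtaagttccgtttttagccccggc
CD244, chr1:160862888-160863137: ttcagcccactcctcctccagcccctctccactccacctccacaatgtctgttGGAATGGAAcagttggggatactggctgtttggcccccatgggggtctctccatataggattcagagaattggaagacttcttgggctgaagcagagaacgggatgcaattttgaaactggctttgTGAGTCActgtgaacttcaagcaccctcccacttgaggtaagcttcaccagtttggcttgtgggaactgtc
SLAMF1, chr1:160647045-160647294: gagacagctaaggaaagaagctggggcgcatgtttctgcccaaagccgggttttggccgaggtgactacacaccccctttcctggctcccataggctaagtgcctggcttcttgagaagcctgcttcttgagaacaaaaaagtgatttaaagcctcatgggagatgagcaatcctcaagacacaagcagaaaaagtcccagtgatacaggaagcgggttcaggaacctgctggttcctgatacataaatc
SLAMF6, chr1:160523256-160523505: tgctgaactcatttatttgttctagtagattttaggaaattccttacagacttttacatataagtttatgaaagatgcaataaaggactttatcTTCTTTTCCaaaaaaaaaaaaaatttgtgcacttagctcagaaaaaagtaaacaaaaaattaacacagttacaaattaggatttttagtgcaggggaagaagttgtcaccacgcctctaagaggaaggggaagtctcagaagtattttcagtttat

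CD48 was the only one of these 4 promoters with a peak, in all KO and all WT lists. The GC content was 43.2% for CD48 and between 30.8% (SLAMF6) and 51.6% (CD244) for the other promoters, and the median over 15843 promoters of protein-coding genes was 62.4%. Both strands were searched for the letters of an IRF site (GAAANNGAA), an ETS site followed by IRF letters (GGAANNGAA), NF-kB (GGGANTTTC), AP-1 (TGANTCA), an E-box (CANNTG), ETS (CCGGAAGT), SP1 (GGGGCGGGG), OCT (ATGCAAAT) and the TATA box (TATAAA). The CD48 promoter held 1 match, an E-box 87 to 82 bases upstream that overlaps the summit stretch, and 57.8% of all promoters hold such letters. The CD244 promoter held the ETS and IRF letters, found in 6.39% of promoters, the AP-1 letters, found in 5.04%, and 2 E-boxes. None of these matches overlapped another. SLAMF6 held the ETS and IRF letters on the opposite strand, and SLAMF1 held none of the 9 motifs.

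Few of the SLAM regions were called in KO cells. KO replicates 1 to 3 called 3, 4 and 4 of the 19 regions, and WT replicates 1 to 3 called 12, 14 and 17. Every KO list lay below every WT list. Called in any KO list were 4 of the 19 SLAM regions and 44847 of all 75701 merged regions. Called in any WT list were all 19 SLAM regions and 70238 of all merged regions. The called peaks covered 1.78, 1.81 and 2.36 kb in KO cells and 9.53, 11.6 and 13.8 kb in WT cells. Their mean fold was 5.61 to 6.12 in KO cells and 5.13 to 6.46 in WT cells. These means cover unlike sets, 3 or 4 regions per KO list and 12 to 17 per WT list. They do not compare the same sites. Per 10000 peaks of a list, the SLAM regions held 1.03 ± 0.107 peaks in KO cells and 2.60 ± 0.416 in WT cells (SD, n = 3). No test is given, since these calls chose the regions. The genome was also laid out in windows of 550 kb with at least 20 peaks over all lists. Every KO list held fewer peaks than every WT list in 67.1% of these windows. That share is on raw counts of the full lists, and none was computed for the rate per 10000 peaks.

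**Figure D1:**
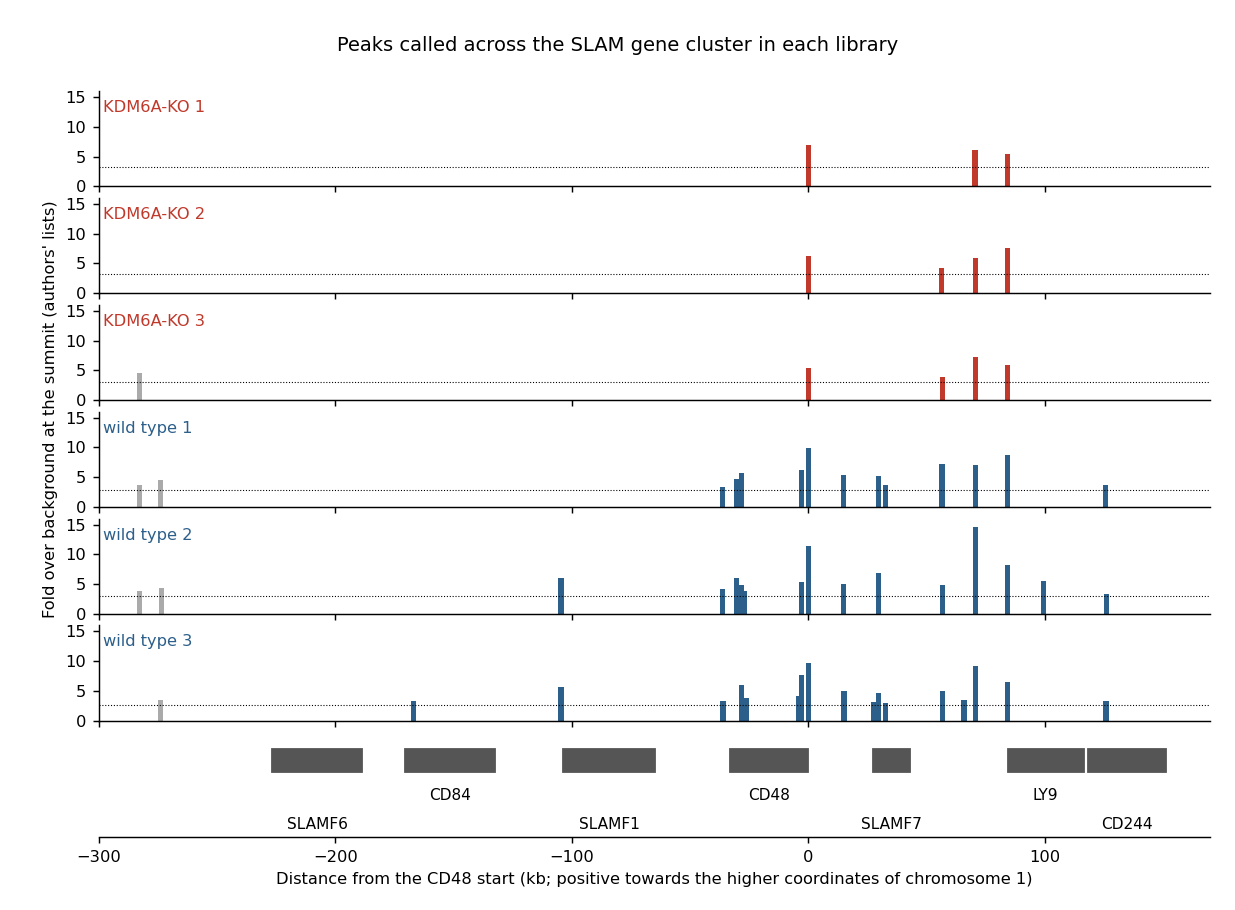
Each row is a library, each bar a peak placed at its summit with the fold over background from the authors' lists as its height, and the x axis gives the distance from the CD48 start in kb. Grey bars belong to VANGL2, dotted lines mark the lowest fold on that list, and boxes show the genes. KO peaks of the SLAM regions stand at the CD48 start, between SLAMF7 and LY9 and at the LY9 start, with none over SLAMF6, CD84, SLAMF1 or CD244. Among the KO rows, only replicate 3 has a grey bar.

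By state, 3 SLAM regions were called in all 6 lists, 6 were WT-only (called in 0 of 3 KO and 3 of 3 WT lists), none was KO-only (the converse), and 10 were called in part of the lists. Of the 10 partial regions, 5 were called in a single list, and all 5 of those lists were WT. Called in all 6 lists were 15.8% of the SLAM regions, against 31.2% of all merged regions, while 52.6% were partial, against 59.6%, and 26.3% were called in a single list, against 29.3%. The 6 WT-only regions stood among 10 SLAM regions called in all WT lists, or 60.0%. Genome-wide, 17.3% of regions found in every WT list were WT-only, and 0.390% of those found in every KO list were KO-only. The SLAM regions were chosen from the same calls, so nothing is read from these differences.

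The peak at the CD48 start was the strongest SLAM region called in all 6 lists by mean WT percentile. CD48 lies at 160678746 to 160711822 on chromosome 1. Its start region, at 160710632 to 160713017, had folds of 6.92, 6.23 and 5.33 in KO replicates 1 to 3 and 9.82, 11.42 and 9.64 in WT replicates 1 to 3. These folds equal 22, 18 and 18 tags at the summit in KO cells and 45, 46 and 45 in WT cells. All KO folds lay below all WT folds, as they did at 43.9% of the 23589 regions called in all 6 lists. The mean KO fold was 59.8% of the mean WT fold, and 13.4% of those common regions had a lower ratio.

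Relative to the median fold of its own list over the common regions, the CD48 start stood at 0.671 ± 0.0835 in KO cells and 0.859 ± 0.0331 in WT cells (SD, n = 3). The groups did not overlap on this scale either, which held for 15.1% of common regions. By fold, the CD48 start ranked at percentiles 30.5, 17.3 and 14.7 of the common regions in KO cells and 40.6, 40.8 and 36.1 in WT cells. The same 23589 regions are ranked in every list, so the number ranked does not differ between lists. Which regions belong to this set still depends on the calling limits of the lists. Within its own full list, by −log10 p-value, the peak ranked at percentiles 47.7, 40.0 and 37.6 in KO cells and 72.8, 73.1 and 70.6 in WT cells. The WT lists are longer than the KO lists, so these percentiles do not share 1 scale between genotypes.

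The CD48 start peak was also narrower in KO cells. It spanned 741, 638 and 917 bp in KO cells and 2179, 2245 and 2386 bp in WT cells. The mean KO width was 0.337 of the mean WT width, against a median of 0.767 for this ratio over the common regions, and 0.861% of them had a lower ratio. All KO peaks were narrower than all WT peaks here and at 52.3% of common regions. Peak width follows the calling limit of a list as well as the chromatin, and their parts were not tested. The summit lay 79 to 85 bases upstream of the start in 5 lists and 24 bases downstream of it in WT replicate 3.

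**Figure D2:**
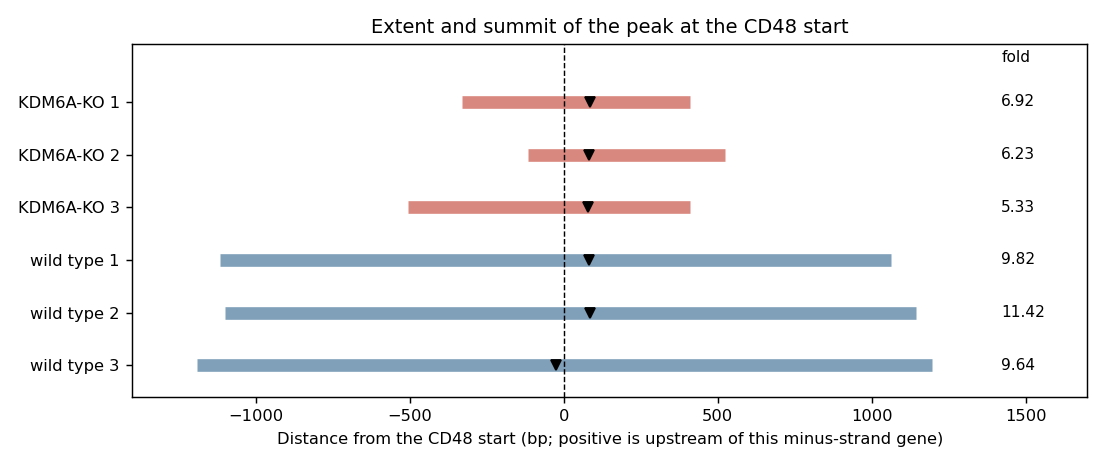
Bars give the extent of the peak at the CD48 start in each library, triangles its summit, and the numbers at the right its fold over background, on an axis of bp from the start. The 3 KO peaks are 638 to 917 bp long and the 3 WT peaks 2179 to 2386 bp, and the summits of all but WT replicate 3 fall within a few bases of each other.

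The other 6 CD48 regions had no peak in any KO list. Inside the gene and closest to the start, the region at 160708528 to 160709524 showed WT folds of 6.19, 5.35 and 7.75, or 28, 21 and 36 tags. It was the strongest of the WT-only SLAM regions by mean WT fold (6.43 ± 1.22, SD, n = 3), and the mean lowest fold of the KO lists, 3.23, is 0.501 of that level. The region at 160682844 to 160684113 showed WT folds of 5.77, 4.86 and 6.08. It lies in the lower-coordinate part of CD48 and overlaps the lower end of LOC124904439, a protein-coding record nested in CD48. The third WT-only region, 2722 bp below the gene at 160675319 to 160676024, showed WT folds of 3.42, 4.13 and 3.35, all above the highest lowest fold of a KO list, 3.31, but 2 of them by less than 1 tag step of that list. The remaining CD48 regions, all inside the gene, were called in 1 or 2 WT lists with folds of 3.77 to 6.08.

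SLAMF7 (160739057 to 160754821), the elotuzumab target, showed no KO peak inside the gene. The broad region at 160739922 to 160741980 begins 865 bp inside the lower end, the known start of SLAMF7, and had WT folds of 5.13, 6.81 and 4.61. Its WT peaks were 1961, 1905 and 1761 bp long, and no KO list called it. The start itself, at 160739117 to 160739529, was called only in WT replicate 3, with a fold of 3.14 that is below the lowest fold of 2 of the KO lists. Between CD48 and SLAMF7, the region at 160726322 to 160727069 was WT-only with WT folds of 5.34, 5.10 and 5.03.

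Above SLAMF7, the region at 160767794 to 160768920 was shared in part. It was called in KO replicates 2 and 3, with folds of 4.26 and 3.93, and in all WT replicates, with folds of 7.26, 4.86 and 5.03. Both KO folds lay below all WT folds. Among regions called in all 6 lists, a set that leaves this region out, all KO folds lay below all WT folds at 43.9%. Its summits spread over 423 bp, so the lists need not mark the same site.

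LY9 (160796174 to 160828255), which encodes a self-binding receptor of B and T cells, had its start called in all 6 lists. The region over its lower end, the known start of LY9, at 160795526 to 160796766, had folds of 5.42, 7.54 and 5.89 in KO cells and 8.76, 8.26 and 6.50 in WT cells. The groups overlapped. Relative to the list medians the LY9 start stood at 0.681 ± 0.0834 in KO cells and 0.657 ± 0.120 in WT cells (SD, n = 3), so the difference was smaller than the spread between replicates. The LY9 start peak spanned 444, 343 and 499 bp in KO cells and 599, 801 and 1241 bp in WT cells. All KO peaks were narrower than all WT peaks, as at the CD48 start and at 52.3% of common regions. The ratio of mean widths was 0.487, with 6.74% of common regions lower.

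The region 13463 bp below LY9, at 160781985 to 160782711 within the non-coding gene LOC105371470, was also called in all 6 lists. It had folds of 6.02, 5.90 and 7.30 in KO cells and 7.05, 14.58 and 9.22 in WT cells. KO replicate 3 lay above WT replicate 1, so the groups overlapped, and WT replicate 2 was high. The ratio of mean folds, knockout over wild type, was 0.623 with all libraries, and 17.1% of common regions had a lower ratio. The median over the common regions, also with all libraries, was 0.788. Without WT replicates 1, 2 and 3 in turn, the ratio for this region was 0.538, 0.787 and 0.592. The median was not recomputed for those sets. The KO and WT widths of this region overlapped, with a ratio of mean widths of 0.779. The other 2 LY9 regions were called in 1 WT list each.

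CD244 (160830160 to 160862887), the CD48 receptor, had 1 region, inside the gene at 160837602 to 160838151, and no gene-end peak in any list. It was WT-only with WT folds of 3.63, 3.40 and 3.35, among the weakest calls of these lists (percentiles 13.1, 4.92 and 8.03). The folds of 3.40 and 3.35 passed the highest lowest fold of a KO list, 3.31, by less than 1 tag step of that list. SLAMF1 (160608106 to 160647044), a self-binding receptor that also serves measles virus for entry, had 1 region, 207 bp below its lower end and so past the end of this minus-strand gene. It was called in WT replicates 2 and 3 with folds of 6.08 and 5.66 and in no other list. CD84 (160541098 to 160579496), a self-binding receptor, had 1 region inside the gene, called in WT replicate 3 alone with a fold of 3.35. SLAMF6 (160485036 to 160523255), a self-binding receptor of natural killer, T and B cells, had no peak in any list inside the gene or nearest to its ends.

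**Figure D3:**
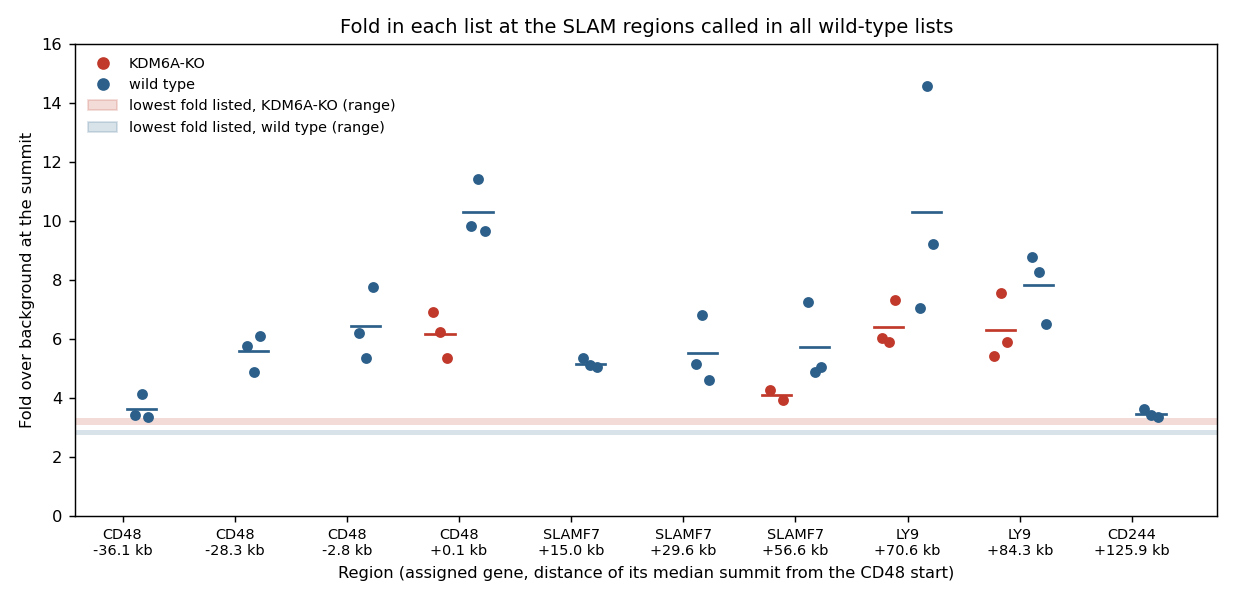
Points give the fold over background in each library that called the region, and short lines the mean where at least 2 libraries did, for the 10 SLAM regions held by every WT list, ordered along the chromosome. Bands span the lowest fold listed per genotype, and all 6 regions without KO points have WT folds above both bands. At the regions below CD48 and in CD244, some WT folds clear the KO band by less than 1 tag step.

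The WT-only SLAM regions were among the weaker regions of WT cells. When all regions held by every WT list were split into 5 equal groups by mean WT percentile, the WT-only share was 46.1% in the weakest group, then 28.2%, 10.1%, 1.99% and 0.0628% in the strongest. Of the SLAM regions 3 lay in the weakest group, all WT-only, and 4 in the second, of which 3 were WT-only. The 2 LY9 regions in the third group and the CD48 start in the fourth were called in all 6 lists, and no SLAM region lay in the strongest group. The median WT fold was 5.64 over the 10 SLAM regions and 8.33 over all regions held by every WT list.

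**Figure D4:**
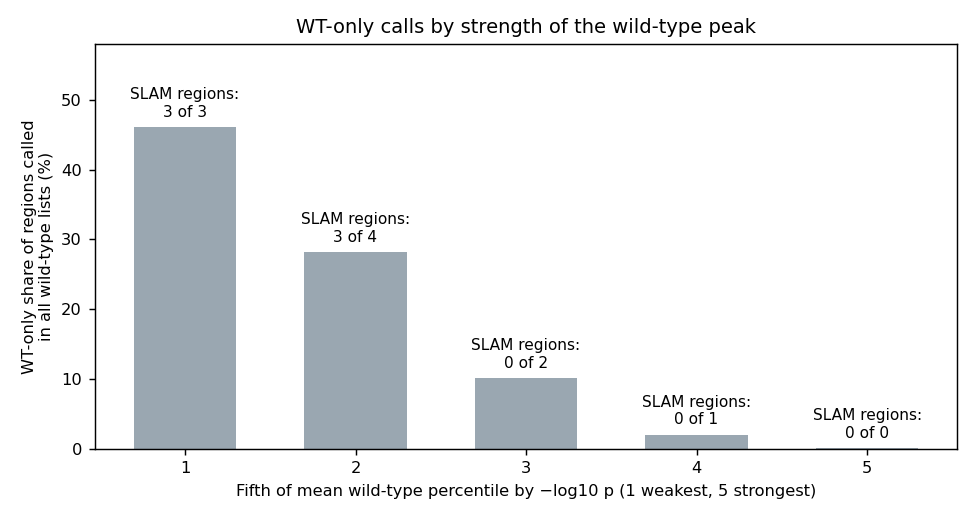
Bars give the WT-only share, in percent, of all regions held by every WT list, split into 5 equal groups by WT peak strength, and the text above each bar gives the SLAM regions. WT-only SLAM regions occur in the 2 weakest groups, where the share over all regions is 46.1% and 28.2%.

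At equal list length no SLAM region was WT-only or KO-only. With the strongest 33055 peaks of each list, 7.24% of regions found in every WT list were WT-only genome-wide, and 3.82% of those found in every KO list were KO-only. Only the CD48 start and the 2 LY9 regions were then called in all WT lists, and all 3 were called in all 6. The WT-only regions inside CD48, at 160682844 and 160708528, and the broad SLAMF7 region at 160739922 were each called in 0 KO and 2 WT lists. The region between CD48 and SLAMF7 was called in 1 WT list, and the WT-only regions below CD48 and in CD244 in none. The region above SLAMF7 was called in 2 KO lists and 1 WT list, and the region below SLAMF1 in 0 KO and 2 WT lists. The weakest peak kept had a −log10 p-value from the peak caller of 4.49, 6.56 and 5.51 in KO replicates 1 to 3. It was 11.7, 12.4 and 13.2 in WT replicates 1 to 3, at percentiles 39.1, 38.0 and 41.4 of the full lists. The 6 WT-only regions had mean WT percentiles of 8.67 to 49.0. Equal length thus set a higher limit for WT peaks, so it cannot decide whether the WT-only state came from list length.

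Per list, KO replicates 1 to 3 then called 3, 4 and 4 SLAM regions, and WT replicates 1 to 3 called 8, 6 and 6. Peaks tied with the last one kept bear on 3 of these counts. A tied peak was kept in the region above SLAMF7 in KO replicate 2 and in the broad SLAMF7 region in WT replicate 1, and one was dropped in a LY9 region in WT replicate 2. With all tied peaks kept, the KO lists called 3, 4 and 4 SLAM regions and the WT lists 8, 7 and 6, and with all dropped, the KO lists called 3, 3 and 4 and the WT lists 7, 6 and 6. The region above SLAMF7 was then called in 1 KO list and 1 WT list, and the broad SLAMF7 region in 0 KO lists and 1 WT list. In windows of 550 kb, every KO list held fewer peaks than every WT list in 21.8% of windows at equal length.

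**Figure D5:**
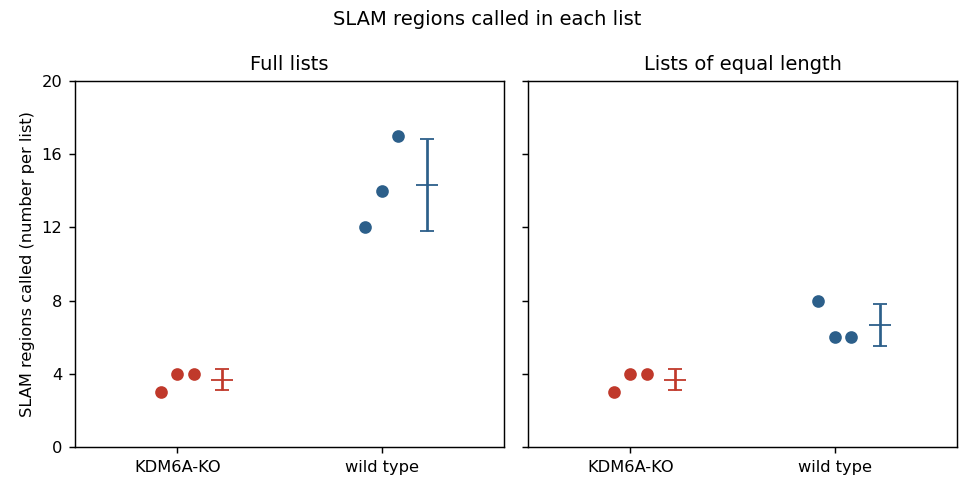
Points give the number of the 19 SLAM regions called in each library, with mean and SD beside them (n = 3), for the full lists and for lists of equal length. The KO lists hold 3 to 4 regions in both panels, and the WT lists 12 to 17 in the full lists and 6 to 8 at equal length.

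Cutting every list at a fold of at least 4, which lies above every list's own limit, left 4 WT-only SLAM regions of 8 called in all WT lists, against 15.5% over all regions. The 4 were the regions at 160682844 and 160708528 in CD48 and at 160726322 and 160739922 near SLAMF7. The weak regions below CD48 and in CD244 were no longer called in all WT lists. These are bulk libraries, so fewer cells with an open site and less opening per cell cannot be told apart.

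Other genes of the SLAM pathway were counted from a list of 18. A peak within 1 kb of a gene end was called in all 6 lists for 9 of them, in no list for 5, and in part of the lists for 4. Of all 20037 protein-coding genes, 54.6% had an end called in all 6 lists and 35.3% in none, so the 9 of 18 lie near the share over all genes. The 9 were CD58, the ligand of CD2, the kinases FYN, LYN and CSK, the phosphatases PTPN11 and INPP5D, the exchange factor VAV1, and the phospholipases PLCG1 and PLCG2. The adaptors SH2D1A and SH2D1B had no gene-end peak in any list, and all 4 WT regions within 50 kb of SH2D1A were WT-only. Over the list, 14 of 91 regions within 50 kb that every WT list held were WT-only (15.4%) and none was KO-only, near the 17.3% over all regions.

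Within 50 kb of the ends of CD48, 5 of the 6 regions held by every WT list were WT-only (83.3%). These calls chose the regions, so the share is a description, and at equal list length none of the 5 was WT-only. The genes most like CD48 on the full lists, among those with at least 5 such regions and at least 1 Mb away and with a gene end called in every list, were CHORDC1 and TMTC2, with 4 of 5 each, PICALM and SCYL3, with 5 of 7 each, and COL4A4, with 4 of 6. Likeness is the difference in the WT-only share over these 6 lists, and the regions were weak by the measure given above, so the ranking describes these calls only.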

How the data were processed

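Each of the 6 samples has its own deposited peak list, and groups and replicate numbers came from the sample titles. Per the submitters' processing notes, Trimmomatic, FastQC, MultiQC, Bowtie2 and MACS2 2.1.2 were used, with the build GRCh38. Their settings, any shift of Tn5 cuts and the handling of duplicates were not given in the sources used here. Peaks were called on each library alone, with no pooling. The deposited columns hold a score, which is the −log10 q-value times 10, a fold (ratio) over background, the −log10 of the p-value and the −log10 of the q-value, as the authors' peak caller wrote them. The mitochondrial peak of each list was left out.

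The deposited folds below 100 were whole multiples of 1 step per list within 0.01 of that step, which is what (pileup + 1) divided by (background + 1) yields, and summit tags and background were recovered from it. A Poisson tail with these values returned the deposited −log10 p-values, with a median difference of at most 2.88e-06. Tags at a summit are not known to be independent molecules. Percentiles rank the −log10 p-values within a list, and a region's value is that of its peak with the highest one. Gene positions and promoters came from RefSeq tables of GRCh38.p14. Gene-end windows reached 1 kb. Where a region overlapped 2 coding genes equally, the SLAM gene took it. Strands of SLAMF7, LY9 and CD84 are background knowledge.

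The genes named are the 7 members, every SLAM region called in all lists of either genotype with the others counted or named at a gene end, pathway genes with an end called in all lists of a genotype or chosen for their role, and up to 5 genes most like CD48. Members, lists and marker genes were chosen with earlier results of these data known, so no test was run. Alternatives were a minimum −log10 q-value of 5, a fold of at least 4, equal list length, merging at 100 bp, summits within 250 bp, assignment among the 7 SLAM genes only, and leaving out each library. A common lowest fold of 3.31, and equal list length with tied peaks all kept or all dropped, were added after seeing the data. The code (Python 3.11.15, pandas 2.3.3) was tested on simulated data.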

Additional observations from a re-analysis of the deposited data

How the results depend on the processing

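Counts of SLAM regions were recomputed under 15 settings, and 54 of 60 stayed within 1.5 times the value given above. These 54 include the KO-only count, which was 0 under every setting. They also include the WT-only count at a fold of at least 4, which was 4 in place of 6 and so lay at the limit. The counts beyond the limit came with lists of equal length, whether tied peaks were kept, dropped or split. There the WT-only regions numbered 0 in place of 6, and those held by every WT list 3 in place of 10. Shortening the lists removes weak WT peaks, and 6 of the 7 SLAM regions lost were WT-only. Leaving out 1 library gave 6 to 8 WT-only regions, 10 to 12 regions called in all WT lists, 3 to 4 called in all 6 and 0 KO-only regions. A −log10 q-value of at least 5 gave 5 WT-only regions, among them the region above SLAMF7, whose KO peaks fell below that limit. Assignment among the SLAM genes alone gave 7, with the region at 160437681 going to SLAMF6. A common lowest fold of 3.31, added after seeing the data, gave 6. Counts for single genes moved too. The 1 WT-only region of CD244 was lost at a −log10 q-value of at least 5, at a fold of at least 4 and at equal length, and the WT-only regions of CD48 and SLAMF7 numbered 0 at equal length. SLAMF1 had 1 WT-only region without WT replicate 1. No paired analysis was possible because the counts come from no test, and the labels do not tie replicate numbers to shared cultures. Sequencing depth is unknown from these lists. The KO lists hold sites with at least 9 or 10 tags at the summit and the WT lists sites with at least 11 or 12, so a site without a call is not shown to be closed.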

Other observations

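The stretch around the SLAM genes also held 2 regions nearest to VANGL2, a planar cell polarity gene outside the family. The region 126 bp past its upper end, at 160428796 to 160429269, was called in KO replicate 3 with a fold of 4.49 and in WT replicates 1 and 2 with folds of 3.63 and 3.89. At equal list length it was called in KO replicate 3 alone. The region at 160437681 to 160438404, over the non-coding gene LOC105371467, was WT-only with WT folds of 4.48, 4.37 and 3.56, and it was called in no list at equal length.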
